A study of Mus musculus with 6 samples.

Results

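Type I interferon response genes are the genes that cells switch on when interferon alpha or beta binds its receptor. A list of 37 of them was followed along the mouse colon epithelium. They were found by gene symbol among the 24346 gene entries measured, and all 37 were present. An entry was tested when it reached an FPKM of 1 in at least 2 libraries, which 33 of the 37 did, against 11815 of the 24346 entries. FPKM is a fragment number divided by transcript length and by the size of the library, so levels of different genes can be set side by side on it. The 4 that did not pass the filter were Ifit2, Ifit3, Mx2 and Ifi44.

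The study compared epithelial cells from the proximal, middle and distal colon. All mice were wild-type C57BL/6J, an inbred laboratory strain, and had received no treatment. The labels give neither the age of the mice nor the way the epithelium was isolated. Each region had 1 library from males (replicate 1) and 1 from females (replicate 2), so n = 2 per region. The labels do not say whether a library holds 1 mouse or a pool, or whether the same mice gave all 3 regions. The p-values therefore reflect only how these 6 libraries scatter, part of which may be technical. In bulk samples such as these, fewer cells of a type and less RNA per cell cannot be told apart.

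The libraries held an estimated 7.88 to 9.89 M fragments each, and total FPKM ranged from 546269 to 612818. The epithelial genes Epcam and Krt8 were abundant in each of the 6 libraries, at 743 to 872 and 3320 to 4010 FPKM. Car1, a carbonic anhydrase of colonocytes, reached 19800 FPKM in the male proximal library and 1960 to 6690 FPKM in the other 5.

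Interferon signalling starts when sensors of foreign nucleic acid such as RIG-I drive production of interferon through Irf3 and Irf7. The receptor then acts through Jak1 and Tyk2 on Stat2 and Irf9, parts of a complex that binds a motif named the interferon-stimulated response element. Its targets include enzymes and binding proteins that block viral RNA, and also sensors and Irf7 itself, which feed the response. Gut epithelium answers both type I interferon and the related type III interferons, keeps part of this programme on at rest, and responds to signals from microbes in the lumen.

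Between distal and proximal colon, 8 of the 33 tested genes fell and 0 rose (limma, adjusted p under 0.05). Over all tested genes, 7.64% fell and 6.47% rose. The genes that fell were Irf7, Oasl1, Ifit1, Lgals3bp, Rsad2, Oas3, Ddx58 and Ifi35, and for 6 of them the difference was at least 2-fold on the log2(FPKM + 1) scale (4.22% of all genes). At an unadjusted p under 0.05, limma put 11 of the 33 lower (15.3% of all genes) and 3 higher (13.9% of all genes). The other 25 did not pass the adjusted threshold, with 16 fitted below 0 and 9 above, so that 24 of the 33 lay below 0 in all (49.0% of all genes). Both distal libraries were below both proximal ones for 15 of the 33 (29.5% of all genes) and above them for 4, Isg20, Oas1g, Ifih1 and Ifi27 (30.8% of all genes). The median difference was -0.33 on the log2(FPKM + 1) scale, against 0.007 over all tested genes. Because an entry can pass the filter through the region where it is high, these counts describe the 33 and are not support for a direction of the whole list. The count of genes that fell was 5 without the male middle, the female middle or the female proximal library, 3 without the male distal or the female distal library, and 8 without the male proximal library, where Isg15 and Oasl2 took the place of Ddx58 and Ifi35. Without the female proximal library the genes counted include Bst2, which is not among the 8. The count was 4 with no filter on low values. Over all genes the number that fell went from 903 to 823 without the male proximal library, 745 without either middle library, 740 without the female proximal, 209 without the male distal and 416 without the female distal library, and 685 with no filter.

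**Figure D1:**
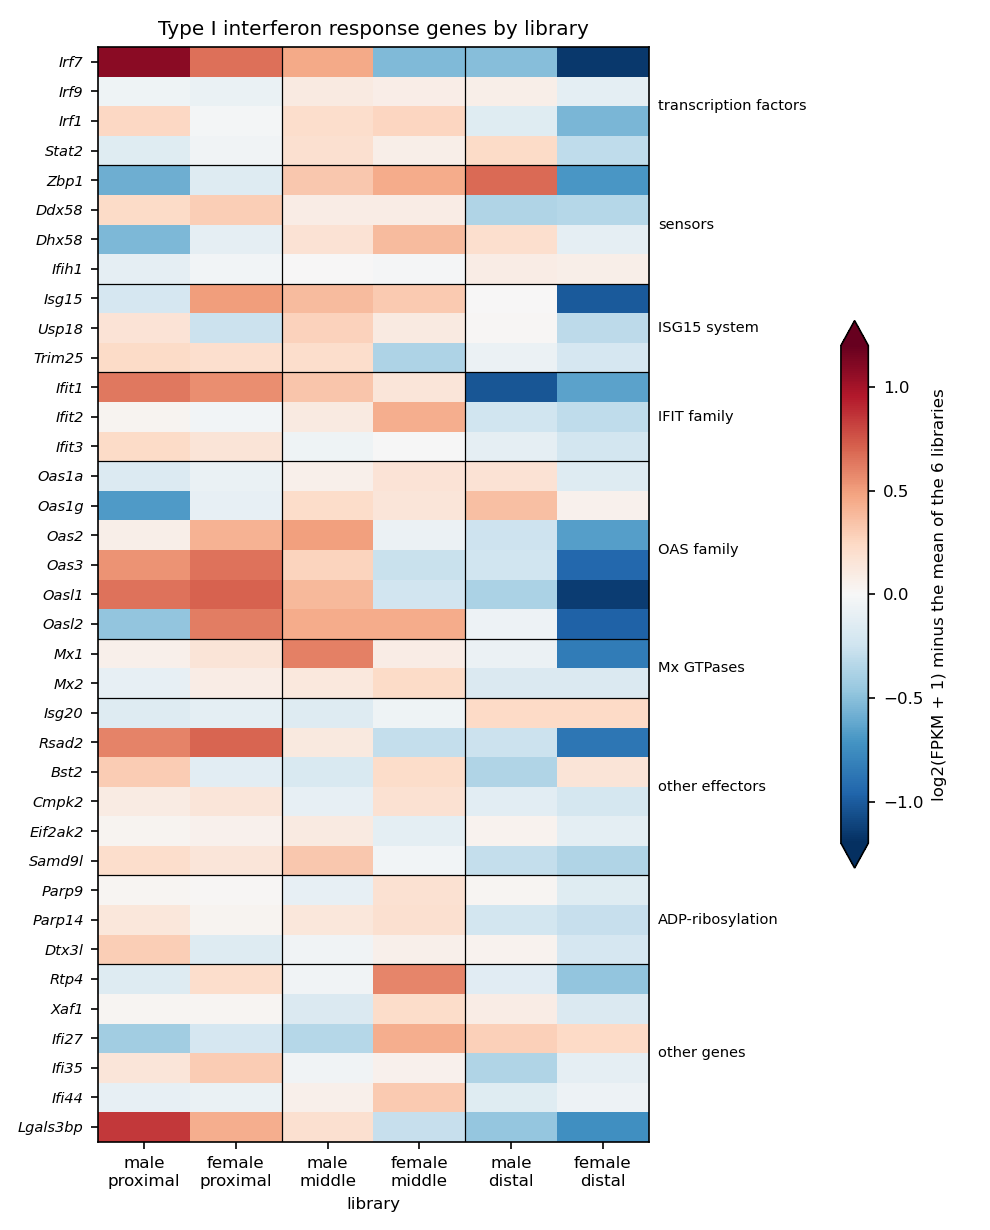
Each row is 1 of the 37 genes, ordered by role, and each column is 1 library. Colour is log2(FPKM + 1) minus the gene's mean over the 6 libraries. The 8 genes that fell run from the highest values in the proximal columns to the lowest in the distal ones, while Oas1a, Ifih1, Irf9 and Eif2ak2 stay close to their own mean.

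Irf7, the transcription factor that drives high production of type I interferon, changed the most of the 33 on the log2(FPKM + 1) scale. Its gene lies at chr7:141262706-141266481 on the minus strand (mm10). In proximal colon it stood at 92.9 (male) and 69.2 FPKM (female), in middle colon at 59.9 and 29.8 FPKM, and in distal colon at 30.2 and 18.9 FPKM. Both distal libraries were below both proximal ones, and within each sex the level was lower at each step along the colon. The regional mean was 81.0 ± 16.8 FPKM at the proximal and 24.6 ± 8.05 FPKM at the distal end (SD, n = 2). The proximal level was 3.07 times the distal level in males and 3.67 times in females. The difference was -1.70 on the log2(FPKM + 1) scale (SE 0.15, 95% interval -2.08 to -1.33, limma adjusted p = 0.0038). It was called under each of the 13 alternative settings, at -1.90 to -1.50.

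The other transcription factors of the list did not pass the threshold. Irf1, an early activator of interferon and antigen presentation genes, was at 68.0, 66.4 and 51.4 FPKM in males and 56.0, 68.7 and 38.8 FPKM in females, from proximal to distal. Both distal libraries were lowest, and the difference was -0.46 (limma adjusted p = 0.085). The partners that carry the receptor's signal to DNA were flat by comparison. Irf9 ranged from 11.8 to 14 FPKM with a distal minus proximal difference of 0.03 (95% interval -0.24 to 0.31). Stat2 ranged from 6.89 to 10.4 FPKM with a difference of 0.05 (95% interval -0.39 to 0.49).

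Among the sensors of foreign nucleic acid, Ddx58 fell. It encodes RIG-I, which recognises viral RNA with free 5′ phosphates, and lies at chr4:40203773-40239828. Its level was 4.84 (male) and 5.12 FPKM (female) in proximal colon, 4.30 and 4.31 FPKM in the middle and 2.90 and 2.95 FPKM in the distal colon. The 2 sexes were close in each region and the regions did not overlap. The difference was -0.61 (SE 0.13, 95% interval -0.94 to -0.27, limma adjusted p = 0.039). Ddx58 kept its call in 4 of the 12 alternatives that tested it. The adjusted p was 0.072 to 0.25 without any 1 of the 6 libraries.

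The related sensor Ifih1, or MDA5, which recognises long double-stranded RNA, was at 12.9, 14 and 14.9 FPKM in males and 13.6, 13.8 and 14.7 FPKM in females, from proximal to distal. Its difference was 0.15 (95% interval -0.11 to 0.41), the opposite sign to that of Ddx58. Dhx58, or LGP2, which tunes the signals of these sensors, ranged from 2.82 to 6.18 FPKM and differed by 0.37 (limma adjusted p = 0.31). Zbp1, a sensor of Z-form nucleic acids that can trigger cell death, ranged from 5.53 to 16 FPKM and differed by 0.36 (limma adjusted p = 0.63).

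The IFIT proteins bind viral RNA whose cap lacks the methylation of host RNA. Ifit1 (chr19:34640871-34650009) passed the filter, and the other 2 IFIT genes of the list did not. It stood at 5.43 (male) and 5.10 FPKM (female) in proximal colon, 4.23 and 3.57 FPKM in the middle and 1.04 and 1.65 FPKM in the distal colon. The regions did not overlap, and the widest step lay between middle and distal colon. It fell by 1.43 on the log2(FPKM + 1) scale (SE 0.19, 95% interval -1.91 to -0.95, limma adjusted p = 0.010). These levels correspond to about 20 to 111 fragments per library. Without the male distal library the difference was -1.17 and the adjusted p 0.072, the only alternative of 13 in which the call was lost. Ifit3 reached at most 0.973 FPKM and Ifit2 at most 0.756 FPKM.

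The 6 OAS genes divided. OAS enzymes make the oligoadenylates that activate RNase L, which degrades viral and cellular RNA. Of the 6, 2 fell (7.64% of all genes) and 0 rose (6.47% of all genes). Oasl1 (chr5:114923240-114937915), an OAS-like protein without that enzyme activity that is known in the mouse to hold back translation of Irf7, was at 17.3 (male) and 18.1 FPKM (female) in proximal colon, 14.3 and 8.95 FPKM in the middle and 8.0 and 4.29 FPKM in the distal colon. The distal libraries were the lowest, and the female level was lower than the male one in middle and distal colon. The difference was -1.44 (SE 0.22, 95% interval -1.98 to -0.89, limma adjusted p = 0.014). Without the female distal library it was -1.19 with an adjusted p of 0.066, the only alternative in which the call was lost.

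Oas3 (chr5:120753098-120777661), an enzyme of the family, was at 2.35 and 2.62 FPKM in the proximal libraries, 1.78 and 0.919 FPKM in the middle and 0.957 and 0.201 FPKM in the distal ones, males first. The distal and proximal levels did not overlap, but the lowest level corresponds to about 9 fragments. The difference was -1.18 (SE 0.26, 95% interval -1.83 to -0.54, limma adjusted p = 0.038). It held in 3 of the 12 alternatives that tested it, and adjusted p was 0.065 to 0.20 without any 1 library other than the male proximal one, and 0.061 with sex left out of the model.

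The remaining OAS genes did not pass the threshold. Oas1a, the most abundant of the 6, was at 23.9, 28.0 and 30.5 FPKM in males and 25.3, 30.3 and 24.1 FPKM in females, from proximal to distal, a difference of 0.13 (95% interval -0.22 to 0.49). Oas1g was at 8.88 and 13.8 FPKM in the proximal and 19.4 and 15.4 FPKM in the distal libraries, males first, a difference of 0.60 (limma adjusted p = 0.14). Oas1a and Oas1g are close copies, and reads can be exchanged between them, so their separate levels are uncertain. Without the female proximal library Oas1g differed by 0.99 with an adjusted p of 0.0099. Oas2 stayed between 0.137 and 1.54 FPKM and differed by -0.70 (limma adjusted p = 0.19), and Oasl2 by -0.59 (limma adjusted p = 0.44). Without the male proximal library Oasl2 differed by -1.36 with an adjusted p of 0.029.

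Oas2, Oas3, Oas1g and Oas1a lie in 1 cluster within chr5:120730333-120907521, and their differences ran from -1.18 for Oas3 to 0.60 for Oas1g. Another pair of neighbours, Rsad2 (chr12:26442746-26456452) and Cmpk2 (chr12:26469204-26479837), are oriented away from each other. Rsad2, or viperin, makes a nucleotide that stops viral RNA synthesis, and Cmpk2 is a mitochondrial nucleotide kinase. Rsad2 was at 4.01 (male) and 4.37 FPKM (female) in proximal colon, 2.60 and 1.72 FPKM in the middle and 1.77 and 0.815 FPKM in the distal colon. Both distal libraries were below both proximal ones, while the female middle library was just below the male distal one. The difference was -1.21 (SE 0.22, 95% interval -1.76 to -0.66, limma adjusted p = 0.023). The adjusted p was 0.080 without the male distal, 0.068 without the female proximal and 0.13 without the female distal library. Cmpk2 stayed between 1.79 and 2.68 FPKM and differed by -0.30 (95% interval -0.73 to 0.14, limma adjusted p = 0.33).

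Isg20, an exonuclease that degrades single-stranded RNA, was the most abundant of the remaining antiviral effectors. It was at 25.6, 25.7 and 33.9 FPKM in males and 26.3, 27.7 and 34.0 FPKM in females, from proximal to distal. Both distal libraries were above the others, and the difference of 0.37 did not pass the threshold (95% interval 0.14 to 0.61, limma adjusted p = 0.060). Samd9l, a cytoplasmic restriction factor for poxviruses, differed by -0.50 with an adjusted p of 0.052, which was 0.049 with median-ratio scaling and 0.046 with a minimum of 5 FPKM. Bst2, or tetherin, which holds budding virus at the cell surface, differed by -0.20, and by -0.64 without the female proximal library (adjusted p 0.047). The RNA-activated kinase PKR, encoded by Eif2ak2, differed by -0.08 (95% interval -0.37 to 0.21).

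Mx1, a dynamin-like GTPase that traps viral nucleoproteins and is defective in C57BL/6 mice, was at 2.1, 3.5 and 1.82 FPKM in males and 2.29, 2.15 and 0.661 FPKM in females. The female distal library was the lowest, and the difference was -0.56 (limma adjusted p = 0.20). Mx2 reached at most 0.319 FPKM and was listed at 0 in distal colon of both sexes.

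In the ISG15 system, a ubiquitin-like tag with its ligases and proteases, 0 of 3 genes fell (7.64% of all genes) and 0 rose (6.47% of all genes). Isg15 itself was at 7.43, 11.6 and 8.72 FPKM in males and 12.7, 11.0 and 3.82 FPKM in females, from proximal to distal. The female distal library was the lowest, and the 2 proximal libraries also lay apart. The difference of -0.65 came with a wide interval (-1.61 to 0.30, limma adjusted p = 0.33). Without the male proximal library it was -1.27 with an adjusted p of 0.039. Trim25, a ligase linked to activation of RIG-I, was at 31.5, 31.0 and 25.3 FPKM in males and 30.7, 20.4 and 23.1 FPKM in females, a difference of -0.35 (limma adjusted p = 0.21). Usp18, which strips ISG15 and blocks the receptor, stayed between 0.513 and 1.28 FPKM and differed by -0.11.

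The ADP-ribosylation genes Parp14, Dtx3l and Parp9 lie within chr16:35832874-35972605. Parp9 and Dtx3l form a complex that modifies ubiquitin, and Parp14 is a larger enzyme of the same kind. Parp9 was at 12.3, 11.2 and 12.3 FPKM in males and 12.2, 13.8 and 10.8 FPKM in females. Its difference was -0.08 (95% interval -0.44 to 0.27). Dtx3l differed by -0.15 (limma adjusted p = 0.61) and Parp14 by -0.33 (limma adjusted p = 0.13).

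Lgals3bp, a secreted glycoprotein that binds galectin-3, was the most abundant of the 37 genes. It lies at chr11:118392751-118402092. Its level was 136 (male) and 102 FPKM (female) in proximal colon, 85.8 and 61.7 FPKM in the middle and 53.9 and 44.6 FPKM in the distal colon. The 3 regions did not overlap. The regional mean was 119 ± 24.4 FPKM at the proximal and 49.2 ± 6.54 FPKM at the distal end (SD, n = 2). The difference was -1.25 (SE 0.10, 95% interval -1.50 to -0.99, limma adjusted p = 0.0032), and it was called under each of the 13 alternatives, at -1.34 to -1.16.

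Ifi35 (chr11:101448407-101458698), whose product pairs with Nmi and can act as a danger signal, changed the least of the 8. It was at 21.2 and 23.8 FPKM in the proximal, 18.5 and 19.8 FPKM in the middle and 14.6 and 17.6 FPKM in the distal libraries, males first. The regions did not overlap. The difference was -0.46 (SE 0.10, 95% interval -0.72 to -0.21, limma adjusted p = 0.039). It was called in 4 of 13 alternatives, and without any 1 of the 6 libraries the adjusted p was 0.070 to 0.32.

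Among the last of the list, Ifi27, a small membrane protein, was at 31.8, 33.5 and 52.5 FPKM in males and 37.2, 58.2 and 50.8 FPKM in females, a difference of 0.57 (limma adjusted p = 0.13). Rtp4, a chaperone of receptors at the cell surface, differed by -0.33 (limma adjusted p = 0.45), and Xaf1, a partner of the apoptosis inhibitor XIAP, by -0.07 (limma adjusted p = 0.88). Ifi44 reached at most 0.636 FPKM.

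**Figure D2:**
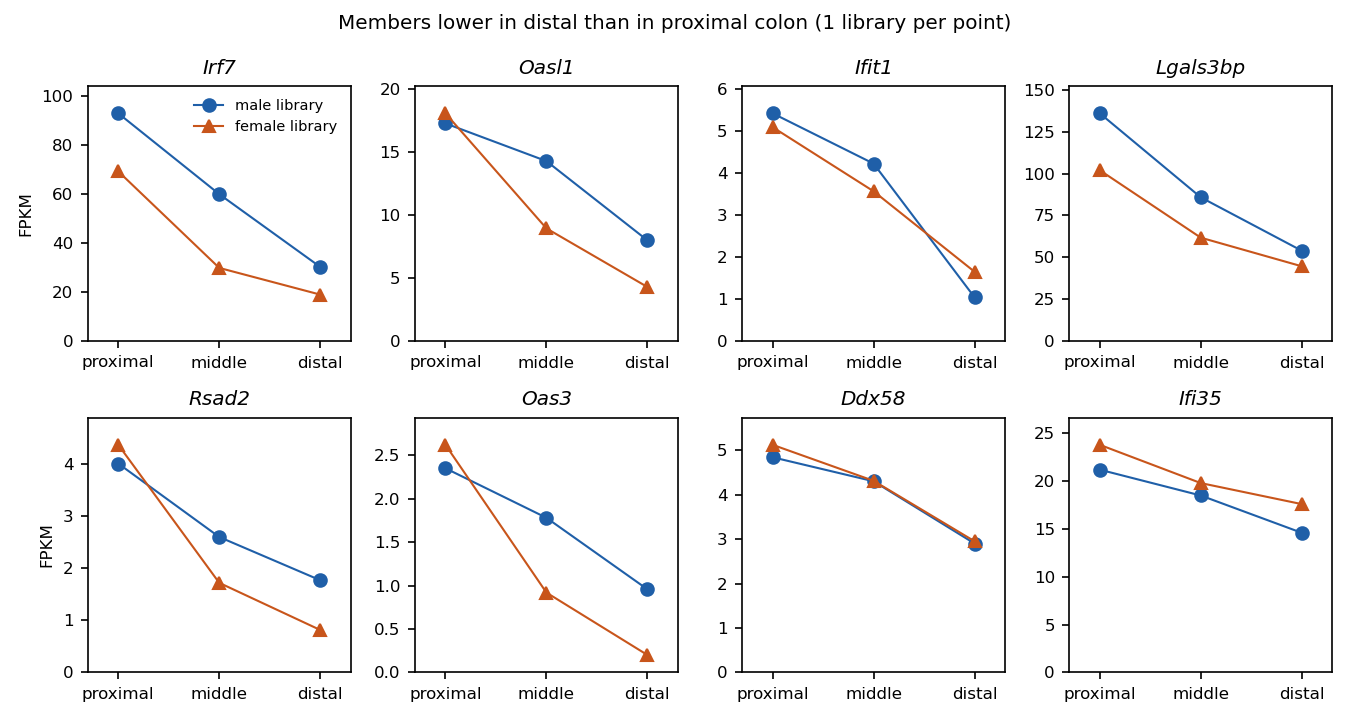
FPKM of the 8 genes that fell between proximal and distal colon, 1 panel per gene, with region on the x axis and 1 point per library (lines join the libraries of 1 sex and do not mark shared mice). Axes start at 0 and differ between panels. In each panel both lines go down at each step, from 92.9 to 30.2 FPKM for Irf7 in males and from 69.2 to 18.9 FPKM in females.

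**Figure D3:**
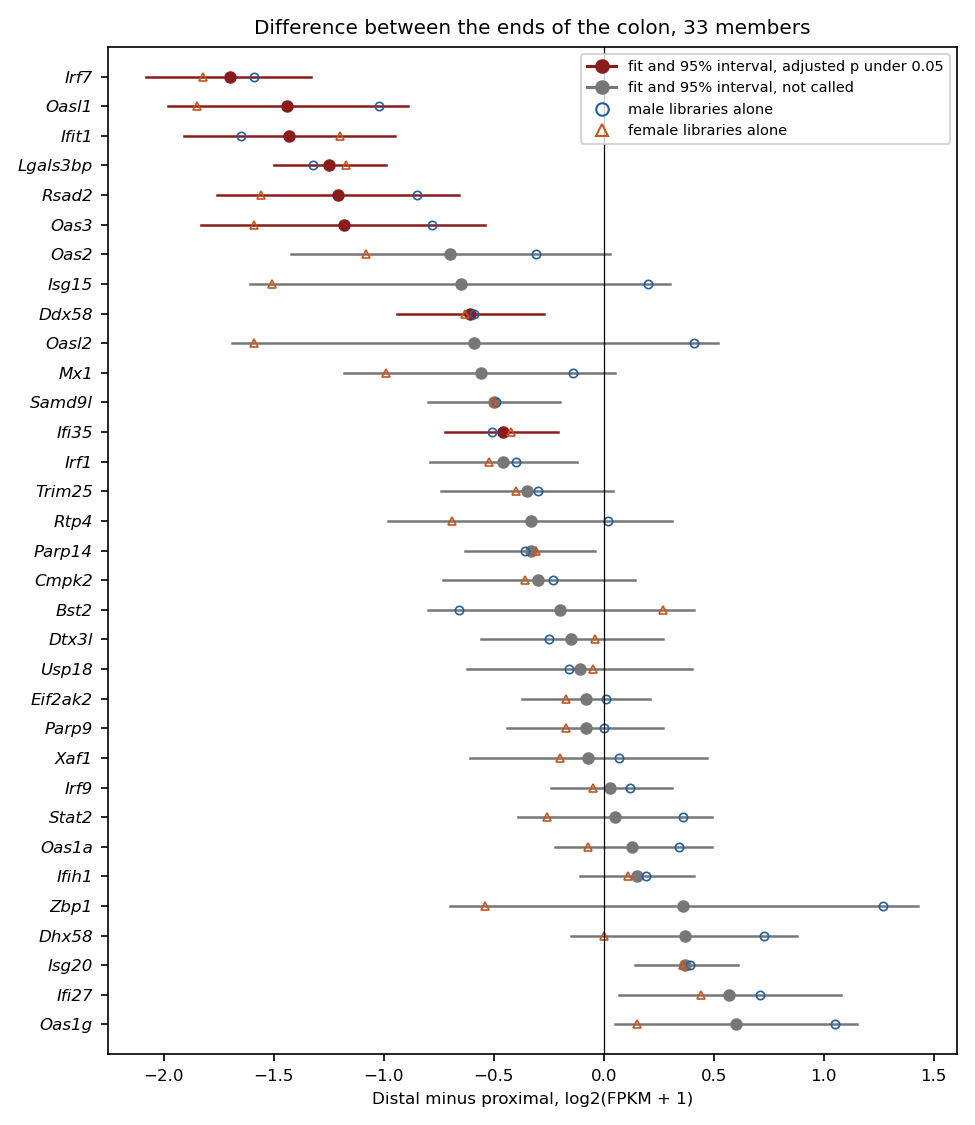
Distal minus proximal difference on the log2(FPKM + 1) scale for the 33 genes tested. Filled points and bars give the fit with its 95% interval, in red for adjusted p under 0.05, and open points give each sex alone. The scale runs from -1.70 for Irf7 to 0.60 for Oas1g, and the 2 sexes lie far apart for Isg15, Oasl2 and Zbp1.

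Genes that did not pass the threshold are not thereby shown to be equal along the colon. Of the 25, 18 had a 95% interval inside ±1 on the log2(FPKM + 1) scale, and 6 had one inside ±0.5. Those 6 were Irf9, Oas1a, Stat2, Ifih1, Parp9 and Eif2ak2. A change of 1 was inside the interval of the other 7, which were Isg15, Oas1g, Oas2, Oasl2, Mx1, Zbp1 and Ifi27. The genes that fell had mean levels of 1.47 to 80.6 FPKM (median 7.95) and the uncalled ones 0.869 to 58.2 FPKM (median 10.3), so the 2 sets covered much the same range.

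Because 8 genes of 1 programme moved the same way, the bases around their start sites were searched for the core of the interferon-stimulated response element. The windows were those of RefSeq for GRCm38.p6, from 250 bases before to 50 after each annotated start, and 27 of the 37 genes had one. Genes without one here were Oas2, Mx1, Mx2, Usp18, Rtp4, Zbp1, Dhx58, Ifi27, Parp9 and Parp14. The motif searched was GAAA, then 2 bases of any kind, then GAAA again, on either strand (as TTTC, 2 bases and TTTC on the other). It stood in the windows of 12 of the 27 genes (44.4%), against 3.44% of all 32851 windows and 3.99% of the 27025 genes with a window. It was in the windows of 4 of the 8 genes that fell, which are shown first, and of 7 of the 16 tested genes with a window that did not pass the threshold, of which 3 follow for comparison. Each stretch reads 5′ to 3′ along the gene's own strand, and capitals mark the motif or, where matches overlap, their joint run.
Ifit1, chr19:34640760-34640838 (+): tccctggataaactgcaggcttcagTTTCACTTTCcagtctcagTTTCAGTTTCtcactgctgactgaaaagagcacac
Rsad2, chr12:26456538-26456597 (-): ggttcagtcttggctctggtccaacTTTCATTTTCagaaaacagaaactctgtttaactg
Oas3, chr5:120777700-120777759 (-): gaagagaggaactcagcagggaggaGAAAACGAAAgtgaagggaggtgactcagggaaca
Ddx58, chr4:40239804-40239833 (-): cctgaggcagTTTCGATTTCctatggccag
Isg15, chr4:156200850-156200921 (-): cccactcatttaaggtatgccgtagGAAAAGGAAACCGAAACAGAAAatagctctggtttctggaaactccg
Oas1a, chr5:120907526-120907570 (-): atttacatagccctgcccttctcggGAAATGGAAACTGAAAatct
Oas1g, chr5:120887614-120887656 (-): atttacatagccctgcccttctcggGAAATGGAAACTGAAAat

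Ifit1 carried 2 separate copies on the reverse strand, between 104 and 76 bases before its start, and Isg15 a run of 3 overlapping ones. The Oas1a and Oas1g windows shared an unbroken run of 73 bases that holds the motif. The match of Ddx58 lay just after its annotated start. The other 5 windows with a match were those of Ifit3, Stat2, Bst2, Ifih1 and Eif2ak2. Irf7, Oasl1, Ifi35 and Lgals3bp had no such match within these 300 bases, which says nothing of sites elsewhere. The motif was thus found near genes that fell and near genes whose difference was close to 0 or above it, such as Oas1a and Ifih1. A match is a description of these letters and was not tested for binding.

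The middle colon lay between the ends for the genes that fell. Against proximal colon, 1 of the 33 fell, Lgals3bp, and 0 rose (limma), with 1.25% of all genes falling and 1.19% rising. At an unadjusted p under 0.05, 4 were lower (Irf7, Oasl1, Rsad2 and Lgals3bp, where 9.55% of all genes were) and 2 higher (Oas1g and Dhx58, where 8.77% of all genes were). Lgals3bp differed by -0.69 between middle and proximal colon (SE 0.10, limma adjusted p = 0.040), and Irf7 by -0.90 (SE 0.15, limma adjusted p = 0.052). The call of Lgals3bp was lost without any 1 library except the female proximal one (adjusted p 0.066 to 0.26), and with sex left out of the model (adjusted p 0.21). Without the male proximal library, the genes called lower did not include Lgals3bp. Without any 1 middle or distal library, the 33 had no such call.

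Between distal and middle colon 0 of the 33 fell and 0 rose (limma), where 0.389% of all genes fell and 0.110% rose. At an unadjusted p under 0.05, 9 were lower (Ifit1, Irf7, Irf1, Oasl1, Mx1, Ddx58, Parp14, Samd9l and Lgals3bp) and 1 higher, Isg20, against 7.08% and 5.61% of all genes. The median difference was -0.35 for distal against middle and 0.02 for middle against proximal colon, where the medians over all genes were 0.008 and 0.000. With either proximal library left out, 4 of the 33 were called lower in distal than in middle colon. Over all genes the lower calls went from 46 to 264 without the male and 271 without the female proximal library.

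The distal libraries were below the middle ones in both sexes for 21 of the 33 (29.8% of all genes) and above them in both sexes for 2, Isg20 and Ifih1 (31.1% of all genes). The middle libraries were below the proximal ones in both sexes for 9 (30.2% of all genes) and above for 11 (29.5% of all genes). A value lower at each step, from proximal to middle to distal and in both sexes, was found for 8 of the 33 (11.3% of all genes). These were the 8 genes that fell. The same held for 718 of the 903 genes of any kind that fell between the ends of the colon (79.5%), so a stepwise course was common among falling genes in general.

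The female minus male comparison over the 3 regions called 0 of the 33 lower and 0 higher (limma), against 0.0339% and 0.00846% of all genes. At an unadjusted p under 0.05, 2 genes, Irf7 and Lgals3bp, were lower in females (5.79% of all genes) and 0 were higher (4.84%). Irf7 was lower in the female library of each region, with a difference of -0.69 (SE 0.12, limma adjusted p = 0.33), and Lgals3bp likewise, with -0.38 (SE 0.08, limma adjusted p = 0.38). Irf9, Usp18, Trim25 and Samd9l were also lower in the female library of each region, which makes 6 of 33 (17.9% of all genes).

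The sexes differed most in how many genes lay on 1 side in distal colon. There the female library was below the male one for 28 of the 33 genes (51.2% of all genes), compared with 18 in middle colon (50.6%) and 12 in proximal colon (50.0%). With 1 library per sex and region, the sex and the single library cannot be told apart. Isg15 was at 3.82 FPKM in the female and 8.72 FPKM in the male distal library, and Oasl2 at 3.40 and 7.23 FPKM. In proximal colon the order was the other way, with Isg15 at 12.7 FPKM in the female and 7.43 FPKM in the male library and Oasl2 at 12.2 and 5.19 FPKM. Isg15 therefore differed between distal and proximal colon by 0.20 in males and by -1.51 in females, and Oasl2 by 0.41 and -1.59, and a test of region by sex has no residual degrees of freedom here.

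Other genes of the pathway were read from lists of ligands, receptors, transducers, inducers and regulators, against the 6.47% of all genes that rose and 7.64% that fell between proximal and distal colon. All 20 genes for type I and type III interferons that the entries hold were listed at 0 in all 6 libraries, Ifnb1 among them. The 4 receptor genes did not pass the threshold between distal and proximal colon. Ifnar1 was at 5.81 to 7.64 FPKM with a difference of -0.17 (95% interval -0.48 to 0.13). Ifnar2 was at 5.05 and 3.27 FPKM in the proximal and 1.18 and 2.19 FPKM in the distal libraries, males first, with -0.95 (95% interval -1.64 to -0.25, limma adjusted p = 0.087). Ifnlr1 and Il10rb, the chains of the type III receptor, differed by 0.36 and 0.16. The kinases Jak1 and Tyk2 did not pass either, at 0.22 and 0.01.

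Of 13 tested genes that induce interferon, 1 rose between proximal and distal colon and 0 fell, where 6.47% and 7.64% of all genes did. It was Tmem173, or STING, which signals from DNA in the cytosol, at 0.713 (male) and 2.21 FPKM (female) in proximal colon, 2.86 and 4.86 FPKM in the middle and 5.66 and 5.36 FPKM in the distal colon. The distal libraries were the highest, and the difference was 1.47 (SE 0.25, limma adjusted p = 0.020). Without the male distal library it was 1.06 with an adjusted p of 0.12, and with no filter the adjusted p was 0.058. Tlr7 and Tlr9, endosomal sensors of plasmacytoid dendritic and B cells, were listed at 0 in all 6 libraries.

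Among 10 tested negative regulators, 2 rose and 2 fell, where 6.47% and 7.64% of all genes did. Irf2, which opposes Irf1 at shared sites, was at 35.2 and 37.4 FPKM in the proximal, 40.3 and 48.0 FPKM in the middle and 72.9 and 71.1 FPKM in the distal libraries, males first. It rose by 0.97 (SE 0.11, limma adjusted p = 0.0067), with an adjusted p of 0.072 without the male distal library. Its corepressor Irf2bp2 rose by 0.47 (limma adjusted p = 0.042), a call that held in 4 of 13 alternatives, with an adjusted p of 0.073 to 0.31 without any 1 library except the female proximal one. The feedback inhibitors of cytokine receptors went the other way.

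Socs1 was at 7.98 and 2.86 FPKM in the proximal, 3.58 and 1.19 FPKM in the middle and 1.34 and 0.693 FPKM in the distal libraries, males first. It fell by 1.56 (SE 0.23, limma adjusted p = 0.013), and the adjusted p was 0.082 without the male distal library and 0.11 with sex left out of the model. Socs3 fell by 1.04 (SE 0.14, limma adjusted p = 0.010), with adjusted p of 0.077 and 0.058 without the male distal or the female distal library and 0.093 with sex left out. Both are induced by cytokines, and in each region both were lower in the female library.

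A wider list of other type I response genes, with 44 tested, had 3 that rose (Trim30a, Sp100 and Sp110, where 6.47% of all genes rose) and 7 that fell (7.64% of all genes). Phf11b, a nuclear protein, was at 4.03 and 4.31 FPKM in the proximal, 2.88 and 2.21 FPKM in the middle and 0 and 0.105 FPKM in the distal libraries, males first, a difference of -2.30 (SE 0.19, limma adjusted p = 0.0034). Ifi47, an interferon-inducible GTPase, differed by -2.27 (limma adjusted p = 0.0055), Phf11d by -1.79 (limma adjusted p = 0.0090) and Ifit1bl2, a relative of Ifit1, by -1.98 (limma adjusted p = 0.012). Without the male distal library the adjusted p was 0.063 for Phf11d and 0.075 for Ifit1bl2. Ifitm2, Parp11 and Pml made up the rest of those that fell. The median of the list was 0.05. Ifit1bl1, another relative of Ifit1, was at 8.56 and 17.3 FPKM in the proximal libraries, males first. It was at 35.9 and 31.1 FPKM in the middle and 31.7 and 18.2 FPKM in the distal libraries. Its difference was 0.92 (limma adjusted p = 0.19), the opposite sign to those of Ifit1 and Ifit1bl2. Ifit1 and its relatives, and Phf11b and Phf11d, are similar in sequence and can exchange reads, so their separate levels are uncertain.

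In the interferon gamma list, which shares many targets with the type I response, 1 of 23 tested genes rose (6.47% of all genes) and 1 fell (7.64%). Gbp2, a guanylate-binding protein that attacks vacuoles of microbes, was at 1.22 and 1.64 FPKM in the proximal, 3.40 and 7.68 FPKM in the middle and 4.96 and 4.65 FPKM in the distal libraries, males first. It rose by 1.26 (SE 0.27, limma adjusted p = 0.036), and the adjusted p was 0.24 without the male distal and 0.082 without the female proximal library, 0.090 with no filter and 0.057 with sex left out. The gene that fell was Socs1, which the list of negative regulators also holds. The median of the list was 0.06.

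Markers of other cells also differed along the colon. Of 14 lymphocyte genes present, 11 were tested, 4 fell between proximal and distal colon (Cd8a, Gzma, Gzmb and Cd7, where 7.64% of all genes fell) and 0 rose (6.47%). The 14 genes summed to 105 (male) and 45.8 FPKM (female) in proximal colon, 12.9 and 25.4 FPKM in the middle and 13.6 and 18.7 FPKM in the distal colon. Nkg7 was listed at 0 in the male middle library and Klrd1 in the male distal one, and Gzma, a granzyme of cytotoxic lymphocytes, in the female distal one. Gzma fell by 2.90 (SE 0.25, limma adjusted p = 0.0036). Cd8a, Gzmb and Cd7 had adjusted p of 0.23, 0.19 and 0.14 without the male distal library and 0.10, 0.076 and 0.057 without the female distal one, and Cd8a 0.051 without either middle one. The lymphocyte sum stood highest in the male proximal library and next highest in the female proximal one. Between middle and distal colon the lymphocyte sum was 12.9 and 13.6 FPKM in males, where Irf7 was 59.9 and 30.2 FPKM. The largest part of that male sum was Ccl5, at 4.97 and 7.73 FPKM, and the genes behind the sum went both ways. Gzma (2.42 and 0.752 FPKM), Cd7 (1.65 and 1.21 FPKM), Cd8a and Gzmb were lower in the male distal than in the male middle library. Cd3e (0.408 and 0.927 FPKM) and Itgae (0.692 and 0.84 FPKM) were higher. In females the sum was 25.4 and 18.7 FPKM, where Irf7 was 29.8 and 18.9 FPKM. The part of lymphocyte RNA in the differences was not tested for any of the 8 genes.

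Tuft cell genes, 8 present and 5 tested, had 2 that fell (Trpm5 and Ltc4s, where 7.64% of all genes fell) and 0 that rose (6.47%), with sums of 10.7 and 9.54 FPKM in the proximal, 15.0 and 10.4 FPKM in the middle and 2.63 and 2.05 FPKM in the distal libraries, males first. Trpm5 had an adjusted p of 0.048, which was 0.060 to 0.21 without any 1 library other than the male proximal one. Ltc4s had an adjusted p of 0.020, which was 0.13 without the male distal library. Of the 10 epithelial markers, 1 fell (7.64% of all genes) and 0 rose (6.47%). Car1 fell by 2.16 (limma adjusted p = 0.039), and without any 1 of the male proximal, male middle, male distal and female middle libraries the adjusted p was 0.061 to 0.28. Krt20, a keratin of mature colonocytes, was at 694 and 851 FPKM in the proximal, 803 and 355 FPKM in the middle and 388 and 247 FPKM in the distal libraries, males first, a difference of -1.31 (limma adjusted p = 0.062). Lypd8, an antibacterial surface protein of mature colonocytes, differed by 0.71 (limma adjusted p = 0.16) and the adhesion gene Cdh1 by 0.46 (limma adjusted p = 0.097). The parts of tuft cells and of colonocyte maturity in the results were not tested.

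Plasmacytoid dendritic cells are known for high Irf7. Of their 8 markers present, Siglech and Ly6d were listed at 0 in all 6 libraries and Ccr9 was at most 0.363 FPKM. Cox6a2 was at most 1.1 FPKM, in the female distal library. Tcf4 was at 3.14 to 5.7 FPKM, with a distal minus proximal difference of 0.56 (limma adjusted p = 0.075). The list also holds Irf7, Bst2 and Klk1, and Klk1 at 1310 to 3640 FPKM sets most of its sum. That sum was 1390 to 1430 FPKM in proximal, 1760 to 2840 FPKM in middle and 2530 to 3690 FPKM in distal colon. Of the 11 macrophage and dendritic cell genes, Csf1r and Adgre1 were at most 0.205 and 0.0998 FPKM, with Adgre1 listed at 0 in 4 libraries. C1qa was at 6.52 FPKM in the male proximal library and at 0.143 to 0.805 FPKM in the others. Lyz2 was at 0.146 to 3.79 FPKM, highest in the female middle library, and Cd68 at 0.733 to 2.27 FPKM. The sum of the 11 was 22.1 to 23.3 FPKM in proximal, 27.0 to 42.2 FPKM in middle and 41.6 to 43.4 FPKM in distal colon. Most of it was Cd14, which rose. The B and plasma cell sum was 84.5 to 92.6 FPKM, of which Xbp1, also an epithelial gene, was 84.2 to 91.9 FPKM. The stromal sum was 0.761 to 3.38 FPKM and the endothelial sum 1.35 to 3.21 FPKM.

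**Figure D4:**
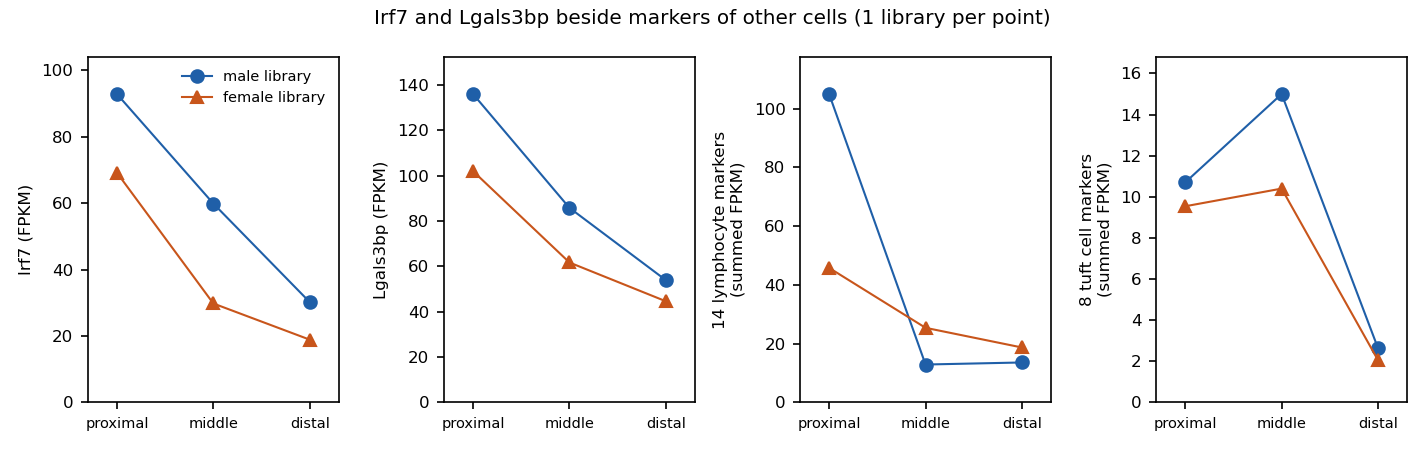
FPKM of Irf7 and Lgals3bp beside the summed FPKM of 14 lymphocyte and of 8 tuft cell markers, with region on the x axis and 1 point per library. Axes start at 0 and differ between panels. Irf7 and Lgals3bp go down at each step in both sexes. The lymphocyte sum goes from 105 over 12.9 to 13.6 FPKM in males and from 45.8 over 25.4 to 18.7 FPKM in females.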

How the data were processed

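Total RNA was extracted with a miRNeasy Micro kit and made into TruSeq stranded mRNA libraries, per the labels' protocols. The authors deposited 1 FPKM value per gene and library. The submitters' processing notes name Cuffdiff 2.2.1, TopHat2 2.1.1, SAMtools 0.1.18 and Bowtie2 2.2.8, and the genome build mm10. Annotation, settings and use of strand: not given in the sources used here. The listed genes and all other lists were chosen with earlier results of these data known.

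Values were analysed as log2(FPKM + 1), a scale that understates changes of genes near 1 FPKM or below. The filter of 1 FPKM or more in 2 or more libraries left 11815 of 24346 entries. Region and sex entered as additive terms in limma 3.58.1 (R 4.3.3), over all 6 libraries, with a variance trend on the mean and 2 residual degrees of freedom. Sex, given by the labels, acts as a block. Benjamini-Hochberg adjustment ran over the entries left, separately for each comparison, with a threshold of 0.05. Genes were named by role: each with its value, in full where called and for the most abundant other gene of a role, and up to 4 per pathway list, called ones first. Values of the genes that rose in the wider type I list, and of Ifit1bl1, were added. Alternatives tried were leaving out each library in turn, leaving out sex (or region), no variance trend, median-ratio scaling or quantile normalization, a minimum of 5 FPKM or none, and a pseudocount of 0.1. The fit was also run on simulated data with independent normal scatter, no sex effect and no outlying library. That run cannot show how the fit behaves on these 6 libraries.

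Low values are spaced by what 1 fragment is worth, which gave the depth estimates (values under 0.2 FPKM, single-transcript genes over 1500 bases, fragments taken as 200 bases). In each library 75.2% to 79.9% of these values lay within 0.1 of a whole number of fragments. Since 0 may stand for a failed estimate, genes at 0 are only said to be listed so. Gene coordinates come from GENCODE M21 for mm10, in which all 37 symbols matched. Promoter windows come from RefSeq for GRCm38.p6 and were matched by symbol. Figures were drawn with matplotlib 3.10.9. Some genes of the pathway lists are not reported here.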

Additional observations from a re-analysis of the deposited data

Results flagged for a closer look

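Zbp1, a sensor of Z-form nucleic acids, went opposite ways in the sexes between proximal and distal colon. From proximal to distal its level was 6.05, 12.3 and 16 FPKM in males and 8.51, 13.4 and 5.53 FPKM in females, so the log2(FPKM + 1) difference between distal and proximal colon was 1.27 in males and -0.54 in females. The difference between the sexes was not tested, since each sex has 1 library per region. Opposite differences of at least 0.5 in each sex were found for 66 of 11815 genes (0.559%), and Zbp1 was the only one among the 33 tested interferon response genes. Groups of 2 libraries are too small for a check of single outlying libraries.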

How the results depend on the processing

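Irf7 and Lgals3bp were called lower in distal than in proximal colon under each of 13 alternatives, and Ifit1 and Oasl1 under 12. The other 4 held less often: Rsad2 in 8 of 12, Oas3 in 3 of 12, Ddx58 in 4 of 12 and Ifi35 in 4 of 13, and the cause was not tested. All 8 stayed below 0 wherever they were tested. The count of 8 became 4 with no filter on low values, where more genes are tested, and 6 with no replicate block (sex left out), and ranged from 3 to 8 with 1 library left out. Genes called higher numbered 0 to 1 with 1 library left out, Oas1g without the female proximal library and Zbp1 without the female distal one (1.19, adjusted p 0.033). Between middle and proximal colon the count of 1 lower became 0 with no filter, with no variance trend or with no replicate block, 2 with a minimum of 5 FPKM, and 0 to 2 with 1 library left out, and the count higher was 0 to 1. Between distal and middle colon, 0 to 4 were called lower with 1 library left out. Over all genes, those called lower in middle than in proximal colon went from 148 to 3 with no filter. They numbered 111 with no variance trend, 16 with no replicate block and 153 with a minimum of 5 FPKM. Between distal and proximal colon the lower calls over all genes went from 903 to 656 with no replicate block. Among the interferon response genes tested, sign changed for uncalled genes only. With quantile normalization the differences were 0.10 for Usp18 and 0.06 for Xaf1. With 1 library left out in turn they ran from -0.05 to 0.12 for Irf9, -1.32 to 0.01 for Isg15, -0.08 to 0.35 for Oas1a, -1.36 to 0.19 for Oasl2, -0.21 to 0.31 for Stat2, -0.75 to 0.09 for Rtp4, -0.30 to 0.16 for Xaf1, -0.46 to 1.19 for Zbp1, -0.64 to 0.25 for Bst2, -0.24 to 0.07 for Parp9, -0.34 to 0.04 for Dtx3l and -0.19 to 0.03 for Eif2ak2. Such fits assume that the region reduced to 1 library varies like the others. In distal colon the lowest levels of Oas3, Rsad2 and Ifit1 correspond to about 9, 29 and 20 fragments. Whether this bears on how often their calls held was not tested.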
